A study of Mus musculus with 4 samples.

Results

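The genes described are 10 that prime hematopoietic progenitors for the lymphoid lineages, *Flt3*, *Il7r*, *Dntt*, *Rag1*, *Rag2*, *Ebf1*, *Pax5*, *Ikzf1*, *Notch1* and *Tcf3*. They were found by gene name among the 39186 genes of a table of RNA sequencing, and all 10 were matched and tested. The RNA came from LSK cells (Lin-Sca-1+c-Kit+ cells, the fraction that holds hematopoietic stem cells and multipotent progenitors), sorted from C57BL/6 mouse fetal livers. The study compared 2 *Pich*-KO with 2 *Pich*-WT samples to ask how the loss of PICH, a DNA translocase that acts on ultrafine DNA bridges in mitosis, alters these cells. The *Pich*-KO allele is a germline TALEN deletion of a few bases at the start of exon 2, so every cell of the embryo carries it, and the gene is X-linked. The *Pich*-WT samples carry no listed allele or agent, and both groups share the strain, the sort and the library kit. Fetal livers were taken at E14.5. The labels do not say whether the samples of a group are separate embryos or pools. The p-values measure the spread between these samples, which in *Pich*-WT includes a difference in sex and in *Pich*-KO may be technical.

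Lymphoid priming is the low expression of lymphoid genes in cells that have not yet lost their myeloid potential. In the best known order, the cytokine receptors FLT3 and IL-7R mark and sustain such progenitors, the transcription factors Ikaros (*Ikzf1*) and E2A (*Tcf3*) open lymphoid genes, NOTCH1 directs cells to the T lineage, and EBF1 and PAX5 direct them to the B lineage. RAG1 and RAG2 then cut antigen receptor genes, and TdT (*Dntt*) adds bases at the cut ends. The fetal liver is the main blood-forming organ of the mid-gestation embryo and a site of early B lymphopoiesis.

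Each library held 14703215 to 20933919 reads on genes, and replicate libraries stood further apart than counting noise alone allows. The deposited values are read counts divided by 1 size factor per sample, called normalized read counts below. *Ercc6l*, the gene of PICH, was higher in the *Pich*-KO libraries (1142 and 1232 against 772 and 661 normalized read counts, log2 fold change 0.73, adjusted p = 0.00887, limma). Because a small deletion leaves the transcript to be counted, the level does not check the genotype. *Pich*-WT sample 2 had 0 reads on 4 Y-linked genes and 699 on *Xist*, while the other samples had 1607 to 2848 and 4 to 13, so 1 library differs in sex from the rest. The LSK markers *Kit*, *Ly6a* and *Cd34* were present in every library, with the highest mean for *Cd34*. Genes listed as markers of other cells were also present, and whether LSK cells themselves express them was not tested. The lowest *Pich*-WT sum of macrophage markers was above the highest *Pich*-KO sum, and the same held for erythroid, endothelial and hepatoblast markers, whereas granulocyte-monocyte markers lay the other way. In bulk RNA, fewer cells of a type and less RNA per cell cannot be told apart.

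In *Pich*-KO LSK cells *Notch1* and *Rag1* were higher and *Tcf3* was lower, and the other 7 genes did not pass the test. *Notch1*, the receptor that starts the T lineage program, was 2.43-fold higher, *Rag1*, which encodes the catalytic subunit of the recombinase, was 3.19-fold higher, and *Tcf3*, which encodes the E2A proteins E12 and E47, was 1.52-fold lower, each as a ratio of mean normalized read counts. Of the 7 others, *Rag2*, *Dntt*, *Pax5*, *Ikzf1* and *Il7r* had positive and *Flt3* and *Ebf1* negative log2 fold changes. The test was limma on log2(normalized read count + 1), a scale that understates the change of low genes, with Benjamini-Hochberg adjustment over 32428 genes and an adjusted p of 0.05 as the threshold. Of all genes tested, 7.58% were called higher and 9.6% lower, beside 2 and 1 of the 10 genes. Many genes tested were low, and these shares depend on the filter. In the fit of 16280 genes with a mean of at least 10, 2915 were higher and 3497 lower. Beside them were 2 and 1 of the 9 genes of the list tested there. The median log2 fold change was 0.363 over the 10 genes and 0.025 over all genes tested. In 9 of the 10 genes *Pich*-KO and *Pich*-WT values lay apart without overlap, as in 56.1% of all genes tested.

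**Figure D1:**
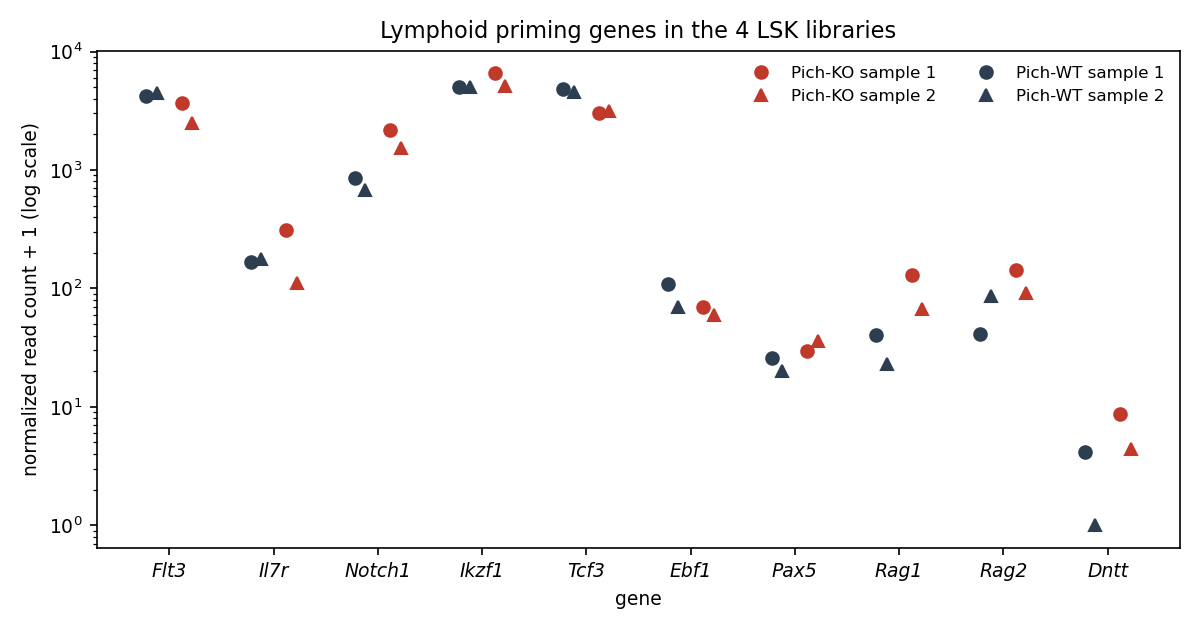
The normalized read count plus 1 (log axis) is plotted for each of the 10 genes (x axis) in the 2 *Pich*-KO libraries (red) and the 2 *Pich*-WT libraries (dark), with circles for sample 1 and triangles for sample 2. *Notch1* and *Rag1* lie higher in both *Pich*-KO libraries, *Tcf3* lies lower, and the *Il7r* values of *Pich*-KO span those of *Pich*-WT.

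With groups of 2, the smallest p of an exact two-sided permutation test on a single gene is 0.333, so each call depends on the spread limma borrows from other genes. Without a prior variance that follows the mean, no gene of the table passed in either direction (0 by limma, although 7377 had an unadjusted p under 0.05). With any 1 of the 4 samples left out, a group is a single library that is assumed to vary like the other group. Such fits cannot decide whether a call holds, and only their log2 fold changes are given. These were 1.02 to 1.52 for *Notch1*, 1.14 to 2.1 for *Rag1* and −0.64 to −0.57 for *Tcf3*. Without *Pich*-WT sample 2, the library that differs in sex, the log2 fold changes of *Notch1*, *Rag1* and *Tcf3* were 1.10, 1.22 and −0.64.

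*Flt3* (ENSMUSG00000042817, chromosome 5, 147330741 to 147400489 on the minus strand of GRCm38) encodes the receptor for FLT3 ligand that is found on multipotent progenitors as they lose stem cell capacity. Its normalized read count was 3648 and 2478 in *Pich*-KO samples 1 and 2, and 4191 and 4481 in *Pich*-WT samples 1 and 2. Both *Pich*-KO libraries lay below both *Pich*-WT libraries, but the *Pich*-KO libraries stood further from each other than *Pich*-KO sample 1 stood from *Pich*-WT. The means were 3063 ± 828 and 4336 ± 205 (SD, n = 2), and their log2 difference of −0.53 ± 0.17 (standard error) missed the threshold (adjusted p = 0.0723, limma). Of 7 alternative settings that use all 4 samples without a replicate block, DESeq2 alone put it under 0.05 (0.025), and the highest adjusted p was 0.381, in the fit without a variance trend. An antisense gene, *Gm26597*, lies over the start of *Flt3* without sharing exon bases. Its counts, from 45.0 to 197 per library, were small beside those of *Flt3*.

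*Il7r* (ENSMUSG00000003882, chromosome 15, 9505788 to 9530176, minus strand) encodes the alpha chain of the receptor for IL-7, which supports the survival and growth of early lymphoid cells. Its normalized read count was 312 and 109 in *Pich*-KO samples 1 and 2, and 166 and 177 in *Pich*-WT samples 1 and 2. It was the one gene of the 10 in which the groups overlapped, because both *Pich*-WT values lay between those of *Pich*-KO. *Pich*-KO sample 1 held 2.86 times the level of sample 2 (95% counting interval 2.26 to 3.64), while the ratio of the *Pich*-WT samples was 0.936 (0.763 to 1.15). The log2 fold change was 0.11 (standard error 0.43, adjusted p = 0.909, limma). It was −0.65 without *Pich*-KO sample 1 and 0.86 without *Pich*-KO sample 2, so its direction was set by 1 library.

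Other genes of FLT3 and IL-7 receptor signaling mostly fell or did not pass. Of 14 genes with ligands, partner chains, kinases, STATs and targets, 1 was higher, 5 were lower and 8 did not pass, with a median log2 fold change of −0.28. *Bcl2*, which blocks apoptosis, was the gene that rose, from 478 and 412 to 833 and 732 normalized read counts (log2 fold change 0.82, adjusted p = 0.00943, limma). *Mcl1*, another survival factor of the same family, fell from 6225 and 5717 to 1087 and 673 (−2.80, adjusted p = 0.000113, limma). *Socs2*, a feedback inhibitor of cytokine signaling, fell from 343 and 212 to 75.3 and 106 (−1.59, adjusted p = 0.00836, limma). The remaining genes that fell were *Crlf2*, the receptor chain for TSLP that pairs with IL-7R, and the kinases *Jak1* and *Jak3*. The genes of the ligands, *Flt3l*, *Il7* and *Tslp*, did not pass.

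*Notch1* (ENSMUSG00000026923, chromosome 2, 26457903 to 26516663, minus strand) had 2155 and 1524 normalized read counts in *Pich*-KO samples 1 and 2, and 846 and 671 in *Pich*-WT samples 1 and 2. The lowest *Pich*-KO value was above the highest *Pich*-WT value. The means were 1840 ± 446 and 759 ± 124 (SD, n = 2), a log2 difference of 1.27 ± 0.19 (standard error, adjusted p = 0.00305, limma). In 6 of 7 alternative settings it stayed past the threshold, from an adjusted p of 1.58e-08 with DESeq2 upwards, and it did not (0.154) in the fit without a variance trend. The log2 fold change was 1.02 to 1.52 with 1 sample left out. Of its exon bases 7.5% are shared with *0610009E02Rik* on the other strand, which had 6 to 10 reads per library. The library kit does not mark strand, so the reads of the 2 genes cannot be told apart there.

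The Notch pathway did not move as one. Of 27 further pathway genes, 2 were higher, 11 were lower and 14 did not pass, with a median log2 fold change of −0.37. Among the receptors, *Notch2* rose with *Notch1*, from 292 and 240 to 656 and 585 normalized read counts (log2 fold change 1.22, adjusted p = 0.00244, limma). *Notch3* was at 50.2 and 21.6 against 19.5 and 13.0, and was not past the threshold. *Notch4*, which is known from endothelium, fell from 545 and 386 to 50.2 and 28.4 (−3.57, adjusted p = 0.00029, limma).

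The ligand genes *Dll1*, *Dll4* and *Jag1* fell and *Jag2* did not pass. *Dll4* moved most among them, from 692 and 436 to 41.4 and 10.2 normalized read counts (−4.66, adjusted p = 0.00107, limma). Of 5 target genes of Notch signaling, *Hes1*, *Hey1* and *Nrarp* fell, with log2 fold changes of −2.74, −2.60 and −2.56, and *Heyl* and *Dtx1*, low in every library, did not pass. *Numb*, an inhibitor of Notch, rose from 82.1 and 69.0 to 270 and 238 (1.74, adjusted p = 0.00159, limma). The fringe genes *Lfng* and *Mfng*, which modify the receptors with sugars, fell, as did the coactivator gene *Maml2* and the secretase gene *Psen2*. *Rbpj*, the DNA-binding partner of the cleaved receptor, did not pass (0.18, adjusted p = 0.41, limma).

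Beside the ligand and target genes that fell, endothelial markers were lower in *Pich*-KO, as were macrophage, erythroid and most hepatoblast markers. All 6 endothelial markers fell, and none was at 0 in any library. Their summed level was 2390 and 1449 in *Pich*-KO samples 1 and 2 against 28294 and 19049 in *Pich*-WT samples 1 and 2. *Lyve1* had the highest mean over the 4 libraries and *Pecam1* the highest value in both *Pich*-KO libraries. The part of endothelial or other cells in the values of the Notch pathway genes was not tested.

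**Figure D2:**
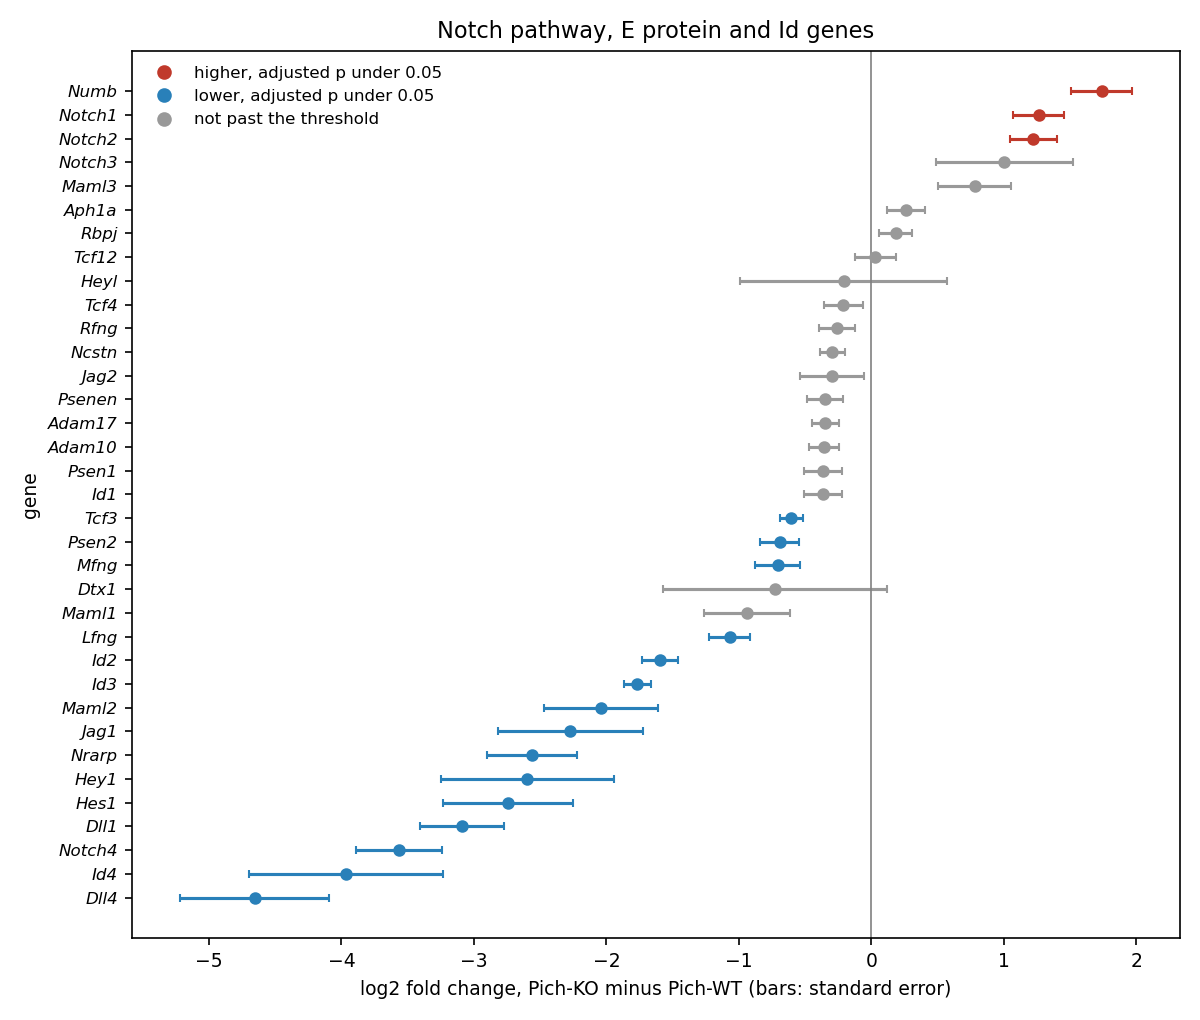
Log2 fold changes of *Pich*-KO minus *Pich*-WT (x axis, bars show the standard error) are plotted for *Notch1*, *Tcf3* and the genes of the Notch pathway and E protein lists (y axis), in red where higher, blue where lower and grey where the threshold was not passed. *Numb*, *Notch1* and *Notch2* stand at the top with 1.74, 1.27 and 1.22, and *Dll4*, *Id4* and *Notch4* at the bottom with −4.66, −3.96 and −3.57.

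*Tcf3* (ENSMUSG00000020167, chromosome 10, 80409514 to 80433647, minus strand) had 3051 and 3157 normalized read counts in *Pich*-KO samples 1 and 2, and 4841 and 4592 in *Pich*-WT samples 1 and 2. The samples of each group lay close together and the groups were apart. The means were 3104 ± 75.0 and 4717 ± 176 (SD, n = 2), a log2 difference of −0.60 ± 0.09 (standard error, adjusted p = 0.00282, limma). It likewise passed in 6 of 7 alternative settings, with 0.00025 the lowest adjusted p (DESeq2), and not in the fit without a variance trend (0.221). Its change is smaller than a log2 fold change of 1, so it was not called where that minimum was required. With 1 sample left out the log2 fold change stayed between −0.64 and −0.57.

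E proteins bind DNA as dimers, and Id proteins bind them and block this. Of 6 further genes of this group none was higher, 3 were lower and 3 did not pass, with a median log2 fold change of −0.98. The genes that fell were all Id genes. *Id3* fell from 6042 and 5324 to 1636 and 1698 normalized read counts (−1.77, adjusted p = 5.41e-05, limma), and *Id2* from 6203 and 7218 to 2509 and 1953 (−1.60, adjusted p = 0.000234, limma). *Id4* fell from 96.1 and 40.0 to 1.09 and 6.82 (−3.96, adjusted p = 0.00777, limma), where the fitted value of such a low gene depends on the pseudocount. The E protein genes *Tcf4* and *Tcf12* and the Id gene *Id1* did not pass. All 12 macrophage markers were lower in *Pich*-KO as well, with a summed level of 9149 and 8023 against 59362 and 60902 and *Csf1r* the highest mean. *Vsig4*, a Kupffer cell marker, was at 0 in *Pich*-KO sample 2. The part of these cells in the fall of *Id2* and *Id3* was not tested.

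*Ikzf1* (ENSMUSG00000018654, chromosome 11, 11685003 to 11772926, plus strand) encodes Ikaros, a zinc finger factor without which lymphoid priming fails. Its normalized read count was 6543 and 5147 in *Pich*-KO samples 1 and 2, and 5017 and 5016 in *Pich*-WT samples 1 and 2. *Pich*-KO sample 1 stood above the other 3 libraries, which lay within a narrow range. The log2 fold change of 0.21 ± 0.12 (standard error) missed the threshold (adjusted p = 0.301, limma), and it was 0.04 without *Pich*-KO sample 1.

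Ikaros acts with its family members and the NuRD chromatin complex. Of 12 such genes 5 were higher, 1 was lower and 6 did not pass, with a median log2 fold change of 0.18. *Mta1* (0.97, adjusted p = 0.0151, limma) and *Chd4*, the ATPase of NuRD (0.79, adjusted p = 0.0029, limma), rose, as did *Mbd3*, *Rbbp4* and *Rbbp7* by smaller amounts. *Ikzf3*, which encodes Aiolos of more mature lymphocytes, fell from 173 and 212 to 26.2 and 44.3 normalized read counts (−2.45, adjusted p = 0.00164, limma).

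*Ebf1* (ENSMUSG00000057098, chromosome 11, 44617317 to 45008091, plus strand), the factor that specifies the B lineage, had 68.7 and 59.1 normalized read counts in *Pich*-KO samples 1 and 2, and 108 and 69.0 in *Pich*-WT samples 1 and 2. *Pich*-KO sample 1 and *Pich*-WT sample 2 were nearly level, with 63 and 69 reads. The log2 fold change was −0.43 (standard error 0.32, adjusted p = 0.44, limma).

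*Pax5* (ENSMUSG00000014030, chromosome 4, 44524757 to 44710487, minus strand), the factor that fixes B lineage commitment, had 28.4 and 35.2 normalized read counts in *Pich*-KO samples 1 and 2, and 25 and 19 in *Pich*-WT samples 1 and 2. These rest on 19 to 32 reads per library, and a difference of this size was not detectable at this depth (log2 fold change 0.52, standard error 0.40, adjusted p = 0.469, limma). Of the *Pax5* exon bases 7.18% are shared with *5730488B01Rik* on the other strand, with 1 and 4 reads in the *Pich*-KO libraries against 15 and 9. Reads of the 2 genes cannot be told apart there.

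Of 16 early B genes none was higher, 2 were lower and 14 did not pass, with a median log2 fold change of −0.71. *Cd22*, an inhibitory coreceptor, fell from 206 and 159 to 74.2 and 58.0 normalized read counts (−1.45, adjusted p = 0.00753, limma). *Blnk*, an adaptor of B cell receptor signaling, fell from 175 and 163 to 77.4 and 86.4 (−1.04, adjusted p = 0.0183, limma). Several of the remaining genes differed widely between the *Pich*-KO libraries.

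*Rag1* (ENSMUSG00000061311, chromosome 2, 101638282 to 101649501, minus strand) had 128.7 and 65.9 normalized read counts in *Pich*-KO samples 1 and 2, and 39.1 and 22.0 in *Pich*-WT samples 1 and 2, from 118, 58, 50 and 22 reads. Both *Pich*-KO libraries lay above both *Pich*-WT libraries, and within each group sample 1 was higher than sample 2. The means were 97.3 ± 44.4 and 30.5 ± 12.1 (SD, n = 2), a log2 difference of 1.62 ± 0.43 (standard error, adjusted p = 0.0384, limma). This call was the least stable of the 3. It was not past the threshold with a pseudocount of 0.1 (adjusted p = 0.0718, limma), without a filter on the mean (0.0969) or without a variance trend (0.207), and among 7 alternatives DESeq2 gave the lowest adjusted p (0.00619).

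*Rag2* (ENSMUSG00000032864, chromosome 2, 101624718 to 101632529, plus strand) faces *Rag1* across 5752 bases, and its protein is the cofactor that the recombinase needs to cut. Its normalized read count was 143 and 89.8 in *Pich*-KO samples 1 and 2, and 39.9 and 85 in *Pich*-WT samples 1 and 2. *Pich*-KO sample 2 and *Pich*-WT sample 2 were almost level. The log2 fold change was 0.95 (standard error 0.41, adjusted p = 0.175, limma), and without *Pich*-WT sample 1 it was 0.41.

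The genes of the recombinase pair did not keep a fixed ratio. Per exon length, *Rag1* stood at 0.467 and 0.38 of *Rag2* in *Pich*-KO samples 1 and 2, and at 0.508 and 0.134 in *Pich*-WT samples 1 and 2. *Pich*-WT sample 2 was the low one. Between the *Pich*-WT samples *Rag1* was 1.78 times as high in sample 1 (95% counting interval 1.06 to 3.08), while *Rag2* was 0.469 times as high (0.325 to 0.671). The gene *B230118H07Rik* spans the locus and shares 1.21% of the exon bases of *Rag1* and 6.07% of those of *Rag2*, with 314 to 447 normalized read counts per library and its highest value in *Pich*-KO sample 2.

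*Dntt* (ENSMUSG00000025014, chromosome 19, 41029275 to 41059523, plus strand) was almost silent, with 7 and 3 reads in the *Pich*-KO libraries and with 4 and 0 in those of *Pich*-WT, where 0 reads allow up to 3.69 (exact 95% counting interval). TdT is known to be scarce in fetal lymphopoiesis. The log2 difference of 1.60 ± 0.91 (standard error, adjusted p = 0.303, limma) depends on the pseudocount, and a difference was not detectable at this depth.

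After the RAG proteins cut, end joining factors repair the break. The 11 genes listed for this step also include *Hmgb1* and *Hmgb2*, which are not core end joining factors and did not pass. Of the 11, 3 were higher, 2 were lower and 6 did not pass, with a median log2 fold change of 0.30. *Prkdc*, the catalytic subunit of DNA-PK, rose from 78.2 and 73.0 to 240 and 290 normalized read counts (1.79, adjusted p = 0.00131, limma). *Dclre1c*, which encodes the hairpin-opening nuclease Artemis, rose from 467 and 405 to 695 and 657 (0.63, adjusted p = 0.0258, limma). The subunits of Ku went opposite ways, since *Xrcc6* (Ku70) rose (0.45, adjusted p = 0.0238, limma) and *Xrcc5* (Ku80) fell from 753 and 938 to 443 and 326 (−1.14, adjusted p = 0.0056, limma). *Polm*, a polymerase related to TdT, fell from 156 and 151 to 64.4 and 70.5 (−1.17, adjusted p = 0.0124, limma). End joining also repairs breaks outside antigen receptor genes in every cell type.

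The E2A proteins bind the E-box CANNTG, so the 250 bases before the RefSeq start (GRCm38.p6, all 10 genes matched) were searched on both strands. The windows of the 3 genes that passed the test and of *Rag2* are shown 5′ to 3′ on the gene's strand, with E-boxes in capitals. They are *Rag1* at chr2:101649533-101649782 (minus), *Rag2* at chr2:101624462-101624711 (plus), *Notch1* at chr2:26503823-26504072 (minus) and *Tcf3* at chr10:80433636-80433885 (minus).
Rag1: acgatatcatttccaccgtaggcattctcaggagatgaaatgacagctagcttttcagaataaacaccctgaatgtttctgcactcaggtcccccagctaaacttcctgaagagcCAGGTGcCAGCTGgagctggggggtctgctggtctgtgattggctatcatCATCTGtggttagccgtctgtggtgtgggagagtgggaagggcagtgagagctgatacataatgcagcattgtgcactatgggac
Rag2: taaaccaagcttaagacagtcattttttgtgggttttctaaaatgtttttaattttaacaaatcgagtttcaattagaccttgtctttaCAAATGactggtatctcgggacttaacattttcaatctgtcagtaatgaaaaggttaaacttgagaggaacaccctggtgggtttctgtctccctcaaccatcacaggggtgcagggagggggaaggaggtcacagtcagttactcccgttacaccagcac
Notch1: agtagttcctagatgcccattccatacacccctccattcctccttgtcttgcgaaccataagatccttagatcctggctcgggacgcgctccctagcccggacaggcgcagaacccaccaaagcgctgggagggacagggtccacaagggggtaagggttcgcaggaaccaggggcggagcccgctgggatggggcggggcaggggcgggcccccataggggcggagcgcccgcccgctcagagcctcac
Tcf3: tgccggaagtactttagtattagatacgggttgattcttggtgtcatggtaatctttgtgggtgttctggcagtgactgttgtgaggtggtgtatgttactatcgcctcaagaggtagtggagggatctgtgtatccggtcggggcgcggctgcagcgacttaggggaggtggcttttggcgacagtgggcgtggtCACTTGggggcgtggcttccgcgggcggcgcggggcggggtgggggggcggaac

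The *Rag1* window held 3 E-boxes, the *Rag2* and *Tcf3* windows 1 each, and the *Notch1* window 0. This *Notch1* window lies inside the gene span given above, and the bases before the outermost start of that span were not searched. Of 32851 RefSeq promoter windows of this length, 66.2% held an E-box, so its presence is common. The *Rag1* window also held TGGGAA, the core of Ikaros sites, which was in 21.6% of windows. None of the 4 windows held CCCNNGGG, the core of EBF1 sites, found in 11.8% of windows, and the *Rag2* window held 1 AANNGAAA, the core of IRF sites, found in 21.3%. A match is a description of the letters and not a site of binding. Of the other genes, *Il7r* and *Dntt* held 3 E-boxes each, *Flt3* and *Pax5* held 1 each, *Ebf1* held 0 and 1 at its 2 starts, and *Ikzf1* held 0 at both starts.

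Among 22 genes of lymphoid-primed progenitors outside the 10, 5 were higher, 6 were lower and 11 did not pass, with a median log2 fold change of 0.05. *Runx1*, a factor for all definitive blood lineages, rose from 854 and 1053 to 2905 and 2331 normalized read counts (log2 fold change 1.46, adjusted p = 0.000589, limma). *Foxo1*, which acts on *Il7r* and the *Rag* genes in B cell precursors, fell from 1091 and 822 to 177 and 80.7 (−2.98, adjusted p = 0.000858, limma). *Sox4* fell from 3300 and 3292 to 1262 and 430 (−2.16, adjusted p = 0.00838, limma). Genes higher also included *Mef2c*, *Myb* and *Lyl1*, and the other genes lower were *Gfi1*, *Cbfb*, *Hhex* and *Bach2*.

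Of 13 early T genes none was higher, 7 were lower and 6 did not pass, with a median log2 fold change of −1.31. *Bcl11b*, the factor of T lineage commitment, was at 44.5 and 62.0 normalized read counts in *Pich*-WT and fell to 12 and 3.41 (−2.82, adjusted p = 0.0133, limma). *Thy1* fell from 57.0 and 72.0 to 8.73 and 13.6 (−2.45, adjusted p = 0.00507, limma). *Tcf7*, an early target of NOTCH1 in thymic progenitors, and *Cd3g*, *Cd247*, *Zap70* and *Lat* also fell. *Notch1* thus moved against these genes, each by its own test. Of 11 markers of mature lymphocytes and NK cells, 4 fell, *Cd4*, *Ncr1*, *Klrb1c* and *Gzma*, and none rose. The summed level of these markers was 2893 and 3218 in *Pich*-KO against 4391 and 3824 in *Pich*-WT, with *Ighm* the highest mean, and *Cd8a* and *Cd8b1* were at 0 in sample 1 of both groups. Their part in the fall of the early T genes was not tested.

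Across the 8 pathway lists, 121 genes outside the 10 were tested, of which 16 (13.2%) were higher and 37 (30.6%) were lower. The shares over all genes tested were 7.58% and 9.6%. In the fit of 16280 genes with a mean of at least 10, 2915 were higher and 3497 lower. Few of the listed genes were below that mean, so the shares over all genes tested are not a like background. An excess of higher genes in the lists is therefore not shown. All 53 calls in the pathway lists were also made by edgeR on the recovered reads. With a pseudocount of 0.1, 48 of them passed, and *Bach2*, *Jag1*, *Hey1*, *Mfng* and *Rbbp4* did not. Without a filter on the mean 43 passed, and the same genes and *Jak1*, *Jak3*, *Xrcc6*, *Sox4* and *Maml2* did not. With DESeq2 51 passed, and *Rbbp4* and *Rbbp7* did not. All 53 kept their direction in these fits and in those with any 1 sample left out.

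The *Pich*-KO libraries differed from each other in these genes. Of the 10 genes, 8 had more in *Pich*-KO sample 1 than in its replicate, which held for 48.0% of all genes tested. A similar lean was seen in *Pich*-WT, where 7 of the 10 were higher in sample 1, beside 52.1% of all genes tested. The ratio of *Pich*-KO sample 1 over sample 2 was 1.47 for *Flt3* (95% counting interval 1.39 to 1.55) and 1.41 for *Notch1* (1.32 to 1.52). It was 1.95 for *Rag1* (1.41 to 2.72) and 1.27 for *Ikzf1* (1.22 to 1.32). For *Tcf3* it was 0.966 (0.917 to 1.02) and for *Pax5* 0.805 (0.459 to 1.40). Counting intervals cover counting error and no variation between samples. Progenitor genes went the same way, with 18 of 22 higher in *Pich*-KO sample 1, and so did all 9 LSK markers.

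Of 16 early B genes, 5 were higher in *Pich*-KO sample 1 and 11 in sample 2, a split that was not tested. Among the 11, *Ms4a1* was higher by scaling alone, with 10 reads in each *Pich*-KO library. The surrogate light chain gene *Igll1* had 50.2 and 325 normalized read counts in *Pich*-KO samples 1 and 2, a ratio of 0.154 (95% counting interval 0.11 to 0.211), against 307 and 221 in *Pich*-WT. *Vpreb1*, its partner, had 22.9 and 147 against 127 and 90.0. The choice of these genes followed from their values. In both *Pich*-KO sample 2 exceeded both *Pich*-WT samples, and sample 1 was below both. Other early B genes differed in the opposite direction, among them the kinase gene *Blk*, with a ratio of 4.0 (1.60 to 11.9), *Irf4*, with 2.99 (1.73 to 5.40), and *Cd72*, with 2.39 (1.59 to 3.64). *Ebf1* and *Pax5* did not show a gap of this size.

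All 8 granulocyte-monocyte markers were lower in *Pich*-KO sample 1 than in its replicate, *Ly6g* by scaling alone, with 1 read in each. Their summed level was 64517 and 117052 in *Pich*-KO samples 1 and 2 against 13239 and 16087 in *Pich*-WT, with *Mpo* the highest mean, and 4 of the 8 rose between groups while none fell. Their part in the gap between the *Pich*-KO libraries was not tested.

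**Figure D3:**
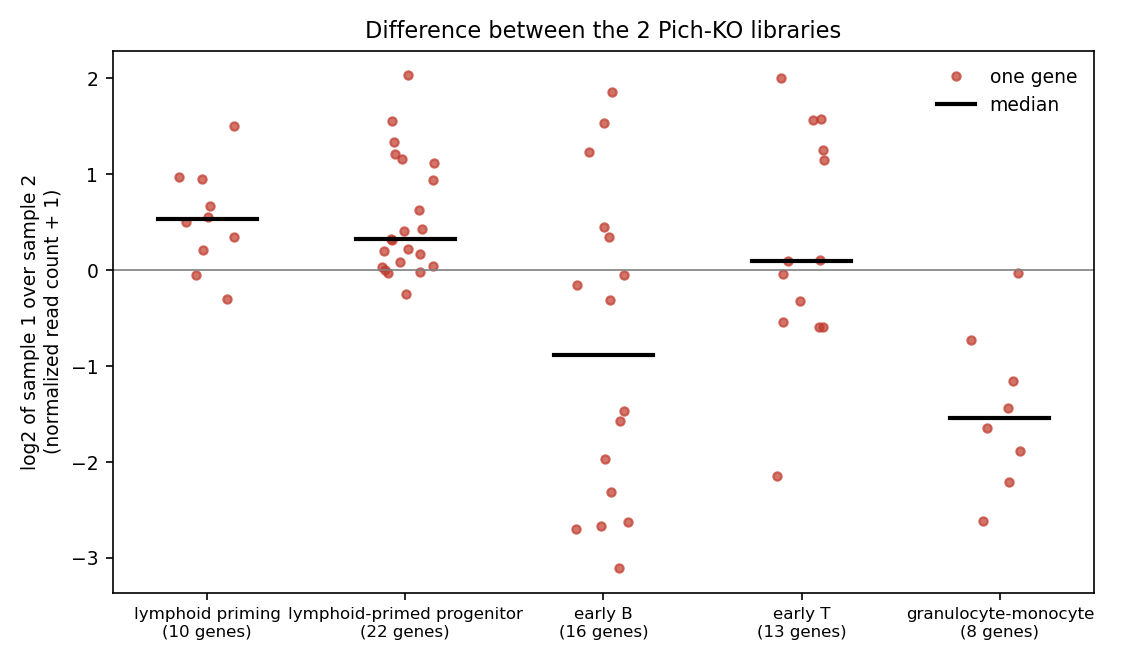
The log2 ratio of *Pich*-KO sample 1 over *Pich*-KO sample 2 (y axis, normalized read count plus 1) is plotted for each gene of 5 lists (x axis), with points spread sideways for sight and a bar at the median. Points of the 10 lymphoid priming genes lie mostly above 0, where sample 1 is higher, those of early B genes mostly below, and those of all 8 granulocyte-monocyte genes below.

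Per kilobase of exon, the 10 genes spanned a wide range of levels in both groups. In *Pich*-KO the mean normalized read count per kilobase was highest for *Ikzf1* (1012), followed by *Tcf3* (768), *Flt3* (496) and *Notch1* (129). The low genes followed in the order *Il7r* (45.2), *Rag2* (34.0), *Rag1* (14.7), *Ebf1* (6.55), *Pax5* (3.59) and *Dntt* (2.60). Neighbours overlapped in range between *Il7r* and *Rag2* and between *Pax5* and *Dntt*. In *Pich*-WT *Tcf3* (1168) stood above *Ikzf1* (868), followed by *Flt3* (702), *Notch1* (53.3), *Il7r* (36.7), *Rag2* (18.2), *Ebf1* (9.06), *Rag1* (4.62), *Pax5* (2.49) and *Dntt* (0.735), with no overlap between neighbours. *Tcf3* and *Ikzf1* changed places between the groups, as did *Rag1* and *Ebf1*. The changes of place were not tested. Together the 10 genes took 0.0866% of the reads in *Pich*-KO and 0.095% in *Pich*-WT, most of them on *Flt3*, *Ikzf1*, *Notch1* and *Tcf3*.

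**Figure D4:**
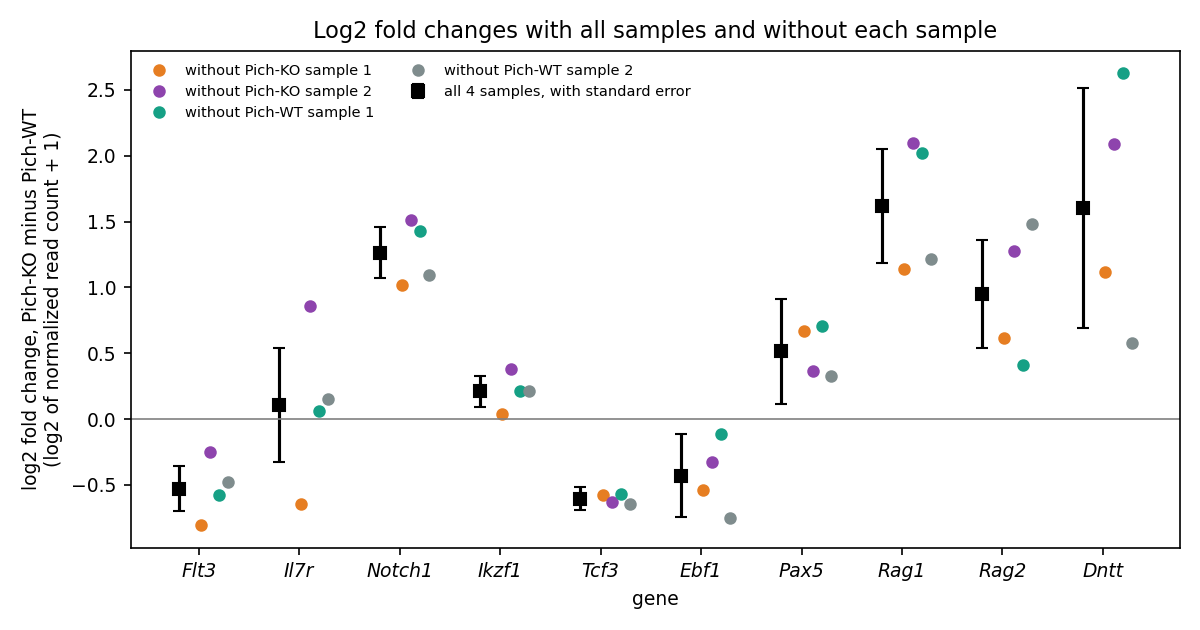
Log2 fold changes of *Pich*-KO minus *Pich*-WT (y axis) are plotted for the 10 genes (x axis), as squares with the standard error for all 4 samples and as circles for the fits that leave out 1 sample each. *Il7r* changes sign without *Pich*-KO sample 1, from 0.11 to −0.65, and *Tcf3* stays between −0.64 and −0.57.

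Cell type markers moved between the groups beside the lymphoid genes. The macrophage, erythroid, endothelial and hepatoblast sums were 7.0, 5.09, 12.3 and 1.67 times as high in *Pich*-WT as in *Pich*-KO, and the granulocyte-monocyte sum was 6.17 times as high in *Pich*-KO. All 9 erythroid markers fell, with *Hba-a1* the highest mean, and 6 of 7 hepatoblast markers fell, with *Afp* the highest mean. The lineage antibodies used for the sort bind CD4, CD8, Gr-1, B220 and Ter119. Of the 9 LSK markers, *Ly6a*, which encodes the Sca-1 of the gate, rose, *Slamf1*, *Procr*, *Mecom* and *Hlf* fell, and 4 did not pass. Of 7 plasmacytoid dendritic cell markers, several of which lymphoid progenitors also express, *Cox6a2* rose, 5 did not pass and *Klk1* was too low to test, with *Irf8* the highest mean. The part of any of these cells in the values of the 10 genes was not tested.

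**Figure D5:**
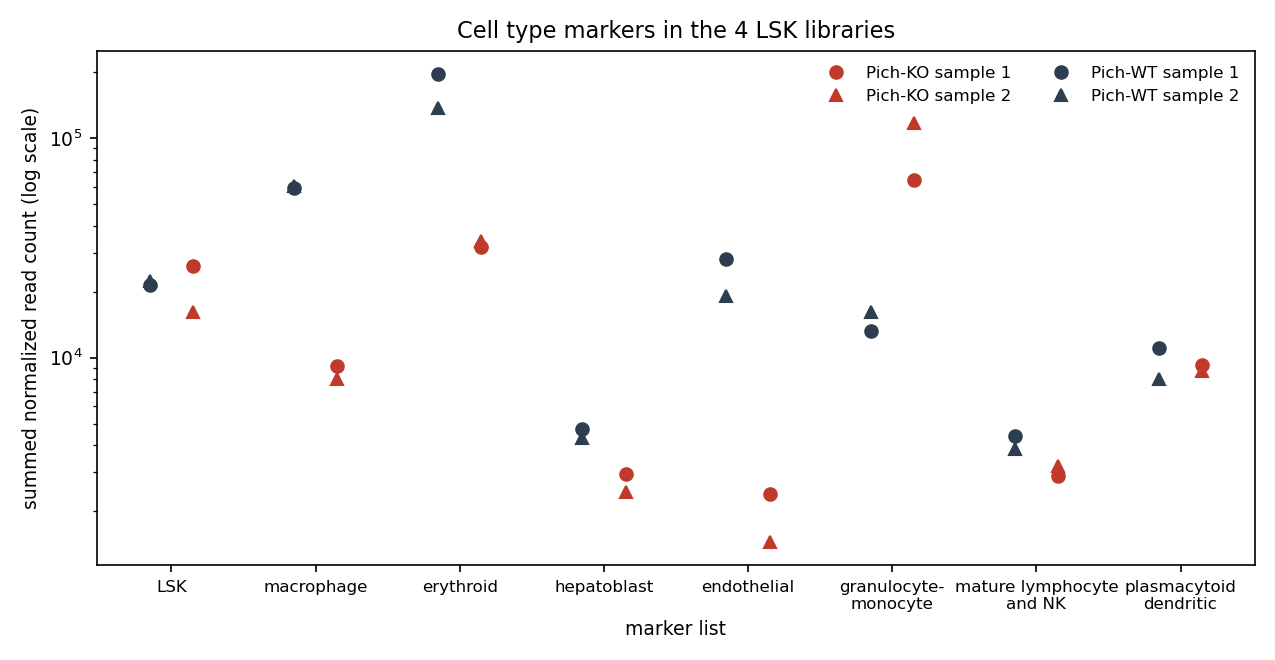
The summed normalized read count (log axis) of 8 marker lists (x axis) is plotted for the 2 *Pich*-KO libraries (red) and the 2 *Pich*-WT libraries (dark), with circles for sample 1 and triangles for sample 2. Macrophage, erythroid, hepatoblast and endothelial sums are lower in both *Pich*-KO libraries, with macrophage sums of 9149 and 8023 against 59362 and 60902, and the granulocyte-monocyte sums are higher.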

How the data were processed

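RNA of sorted fetal liver LSK cells was made into TruSeq libraries, 2 of *Pich*-KO and 2 of *Pich*-WT cells. The authors deposited a table of gene values, a signal made from read counts divided by 1 size factor per sample. All values were whole multiples of 1 step per sample (100%, tolerance 0.01 reads), which gave back the reads, 14703215 to 20933919 per sample. The submitters' processing notes name Bowtie 0.12.2 and the builds mm8 and mm9, but 97.8% of the table's genes had the start and end of GENCODE M21, so coordinates are on GRCm38. The counter is not given in the sources used here. The deposited columns of the authors' own fold changes and p-values were not used.

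limma 3.58.1 (R 4.3.3) was run with a variance trend on log2(value + 1) over genes whose mean was 1 or more, with Benjamini-Hochberg adjustment. The 10 genes and all lists were chosen with earlier results of these data known. All 10 genes are named. From each pathway list, up to 2 genes with the largest rise and 2 with the largest fall past the threshold without overlap were named, and from each marker list the gene with the highest mean. Others are given as whole role groups or were chosen after their values were seen. Some genes of the lists are counted but not reported by name here. The lists were cytokine receptor signaling, V(D)J end joining, lymphoid-primed progenitor, early B, early T, Notch pathway, E protein and Id, and Ikaros family and NuRD, and markers of LSK, macrophage, erythroid, hepatoblast, endothelial, granulocyte-monocyte, mature lymphocyte and NK, and plasmacytoid dendritic cells. Alternatives were another pseudocount (0.1), no filter, a mean of at least 10, no variance trend, edgeR 4.0.16 (quasi-likelihood) with TMM or upper-quartile scaling, DESeq2 1.42.0, a replicate block, each sample left out, and a minimum absolute log2 fold change of 1. Only limma with its main settings, edgeR with TMM and DESeq2 were tested on simulated counts. Counting intervals are exact 95% intervals and cover counting error only.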

Additional observations from a re-analysis of the deposited data

How the results depend on the processing

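Over all genes, limma called 2459 higher and 3113 lower. Without a variance trend it called 0 and 0, although 7377 had an unadjusted p under 0.05, and with a minimum absolute log2 fold change of 1 it called 901 higher and 2241 lower. With 1 sample left out, 0 to 548 were higher and 0 to 1193 lower, while 5716 to 8654 had an unadjusted p under 0.05. The remaining settings gave 1840 to 3165 higher and 2326 to 3874 lower, and edgeR with TMM shared 5485 of the 5572 limma calls. Of the 10 genes, 2 were higher, and this count was 1 with a pseudocount of 0.1, 1 without a filter, 0 without a variance trend and 0 with any 1 sample left out. The count of lower genes was 1, and it was 2 with DESeq2, which added *Flt3*, 0 without a variance trend, 0 with the minimum log2 fold change of 1 and 0 with any 1 sample left out. *Il7r* reversed, with log2 fold changes of −0.65 to 0.86 when 1 sample was left out. The cause was not tested. Over genes with a mean of at least 10, log2 fold changes differed from the main fit by a median of 0.023 in edgeR with TMM. The median difference was 0.032 with upper-quartile scaling and 0.001 in DESeq2. These differences include the change of model as well as of scaling. The deviations of samples that share a number had a correlation of 0.0133 over 10544 genes, so no strong shift was shared by number. With 2 samples per group this cannot decide whether the numbers pair the samples. With the replicate block 3 of the 10 genes were higher and 2 lower, adding *Rag2* (adjusted p = 0.0377, limma) and *Flt3* (0.000649), and 3122 and 3874 of all genes. *Dntt* was not tested by edgeR or with a mean of at least 10, and DESeq2 gave it no adjusted p. Depth limits *Dntt* and *Pax5*, and *Rag1*, *Rag2* and *Ebf1* also rest on few reads, at most 138 per library.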
